A study of Mus musculus with 12 samples.

Results

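The 10 genes described here encode the machinery that carries mouse cells from G1 into S phase: the D-type cyclins Ccnd1, Ccnd2 and Ccnd3, the E-type cyclins Ccne1 and Ccne2, the kinases Cdk2, Cdk4 and Cdk6, the inhibitor p27 (Cdkn1b) and the retinoblastoma protein (Rb1). They were chosen by symbol from the 23420 gene entries of the count tables, and each of the 10 was found in both tables and passed the filter on low counts in both. R1 mouse embryonic stem cells, kept on gelatin with LIF, were transfected for 48 h. Controls were siGFP, siNC and Lipo, and the knockdown cells had received siRNAs to Krr1, whose protein works in building the small subunit of the ribosome. The labels speak of 3 control and 3 Krr1 siRNAs, although the name Lipo states no siRNA. The knockdown libraries are called siKrr1 A, siKrr1 C and siKrr1 D, or knockdown A, C and D, after the letters of their columns. From each lysate came 1 RNA-seq library and 1 ribosome profiling library, in which the mRNA fragments covered by ribosomes (footprints) are sequenced. This gives 12 libraries, 3 per group and assay. No genetic alteration of the line is given in the labels, which do not say whether the samples were separate cultures, so p-values measure only the spread between these samples.

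D-type cyclins are made in response to growth signals and bind Cdk4 and Cdk6, and E-type cyclins bind Cdk2. Both kinds of kinase phosphorylate Rb and its relatives, which frees E2F transcription factors to drive genes of DNA replication, while p27 binds and restrains cyclin-kinase complexes. Embryonic stem cells are known for a short G1 phase, abundant cyclin E with Cdk2 activity and mostly phosphorylated Rb.

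RNA libraries held 31318772 to 39670139 counts on genes and footprint libraries 21615934 to 28911254. Krr1 RNA stood at 21.7%, 37.3% and 41.5% of the control mean in knockdown A, C and D, and Krr1 footprints at 18.9%, 37.5% and 31.4% (edgeR adjusted p = 0.00228 and 0.000819). All 8 stem cell markers examined (Pou5f1, Sox2, Nanog, Esrrb, Zfp42, Tdgf1, Dppa5a and Utf1) averaged over 1 CPM in RNA. Their summed RNA was 7944 to 8059 CPM in controls and 6361 to 7627 in knockdown cells, lower without overlap. Not every marker was lower, as mean RNA in controls and knockdown cells was 587 and 599 CPM for Sox2 and 1172 and 1197 for Dppa5a. For Nanog it was 449 and 299 CPM, for Esrrb 883 and 689, and for Zfp42 1216 and 904. The 7 fibroblast markers summed to 2.94 to 4.20 CPM in controls and 2.03 to 3.85 in knockdown cells, with Col3a1, Lum and Postn at 0 in all 6 RNA libraries. In RNA, endoderm markers (5 genes) summed to 2.84 to 3.55 and 2.39 to 2.89 CPM. Mesoderm or neural markers (4 genes) summed to 6.68 to 7.48 and 7.18 to 8.58. Among the latter, mean RNA was 0.46 and 0.98 CPM for T, 0.73 and 1.01 for Mesp1 and 1.29 and 2.14 for Pax6. For Sox1 it was 4.53 and 3.94. Footprint sums for fibroblast markers were 11.1 to 13.6 and 7.47 to 14.1 CPM. Endoderm footprints were lower without overlap, at 3.96 to 4.81 and 2.81 to 3.12 CPM. Mesoderm or neural footprints were higher without overlap, at 3.99 to 4.28 and 4.48 to 6.73. The part of these markers in the results was not tested.

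Among the 10 genes, the D-type cyclin Ccnd3 was lower in RNA and in footprints after Krr1 knockdown. Ccnd2 was lower and Rb1 higher in footprints, with RNA values of similar size that missed the threshold. Ccnd1, both E-type cyclins, the 3 kinases and p27 were not called in either assay. Called means an adjusted p under 0.05 over all genes tested in edgeR's quasi-likelihood test. In RNA 1 of 10 was called, in the lower direction, beside 4.8% of 14038 genes tested (2.69% higher and 2.11% lower). In footprints 3 of 10 were called, 1 higher and 2 lower, beside 6.07% of 13287 (3.39% higher and 2.68% lower). The median log2 fold change of the 10 was -0.09 in RNA and -0.11 in footprints, against 0.00 and 0.01 over all genes tested. In RNA, the knockdown and control libraries did not overlap for 4 of the 10, Ccnd2, Ccnd3 and Cdk4 on the lower side and Rb1 on the higher, beside 27% of all genes tested (13.6% higher and 13.4% lower). In footprints this held for 3, Ccnd2 and Ccnd3 lower and Rb1 higher, beside 27.9% (14.3% higher and 13.6% lower).

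**Figure D1:**
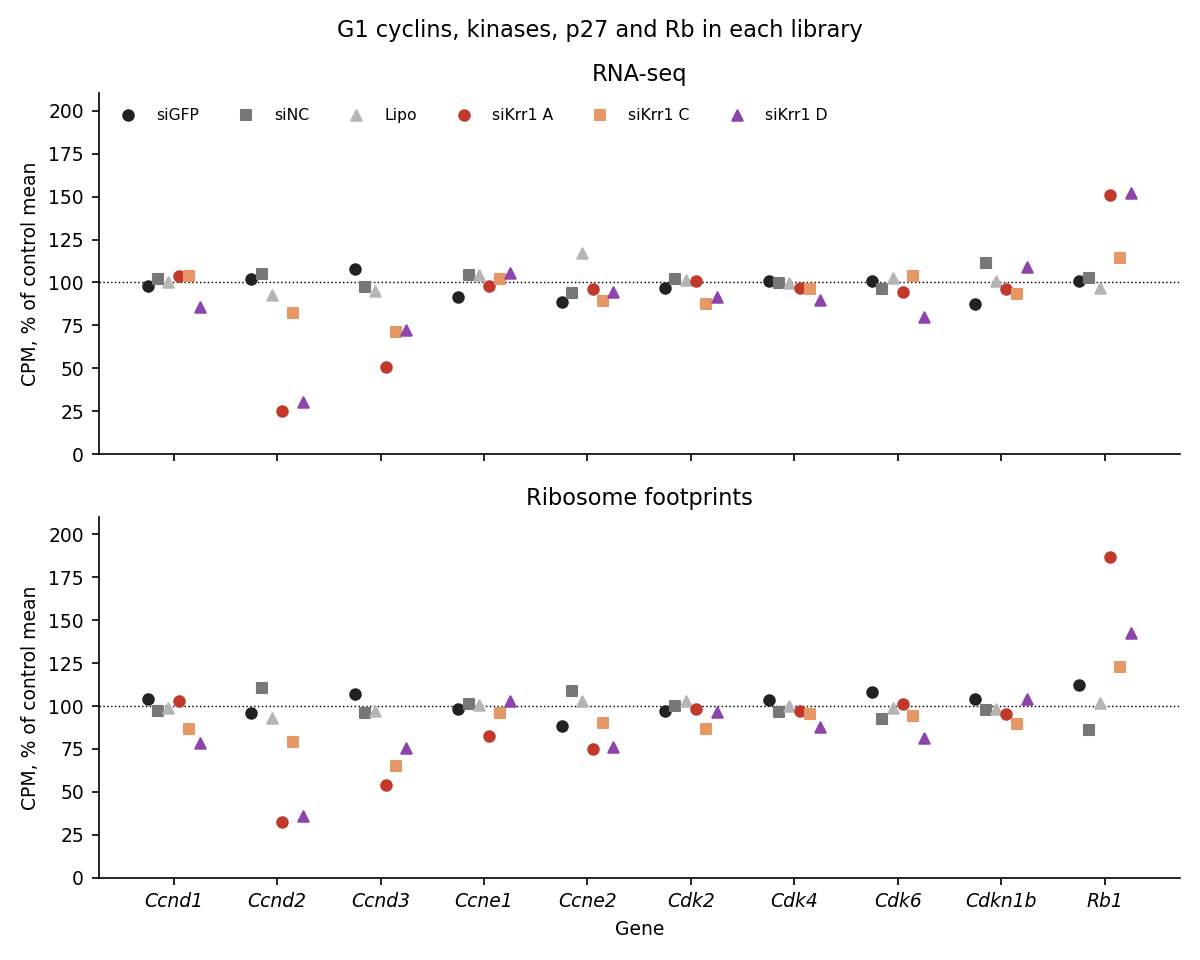
Level of each gene in each library as a percentage of the mean of the 3 controls (vertical axis, from TMM-scaled CPM), for RNA above and footprints below; grey and black points are controls and coloured points the 3 Krr1 siRNAs. Ccnd2 in siKrr1 A and D lies far below its controls at 25.4% and 30.6% in RNA while siKrr1 C lies at 82.0%, Ccnd3 is lower in all 3, and Rb1 is higher in all 3.

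The Ccnd3 gene (Entrez 12445, chr17:47505051-47599689, GRCm38.p6, the build also named mm10) encodes cyclin D3, an activating partner of Cdk4 and Cdk6. Levels are given in CPM, counts scaled to a common total with TMM factors, and are relative to the other RNAs of a library. In a bulk sample, fewer cells of a type and less RNA per cell cannot be told apart. Ccnd3 RNA was 232, 209 and 205 CPM in siGFP, siNC and Lipo and 109, 153 and 156 CPM in knockdown A, C and D. The highest knockdown library was thus below the lowest control. Footprints were 245, 220 and 222 CPM in the controls and 123, 149 and 174 in knockdown A, C and D, again without overlap. Against the control mean, RNA was at 64.6% ± 12.1 (SD, n = 3) and footprints at 64.9% ± 11.0 in the knockdown cells. Ccnd3 fell in RNA by 0.63 ± 0.12 on the log2 scale (SE, edgeR adjusted p = 0.0175) and in footprints by 0.62 ± 0.10 (edgeR adjusted p = 0.00787). The RNA call was lost without any 1 of the controls, with edgeR adjusted p of 0.0979 without siGFP, 0.0526 without siNC and 0.0568 without Lipo, and the footprint call without siGFP (0.0508). Both calls held with each knockdown library left out.

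Ccnd3 was the member that fell in both assays, and its RefSeq promoter windows (GRCm38.p6) are given here as a description. The table holds 2 start sites for it, both on the plus strand, and counts per gene symbol do not say which of them was used. The 250 bases before each start are given, with E2F motifs in capitals where found. The search covered TTTCCCGC, TTTGGCGC, TTTCGCGC and TTTGCCGC on both strands, none of which is in these letters of Ccnd3. Of the 10 genes, 6 matched the table with 7 windows, and 1 window, that of Cdk2, held a motif, 140 bases before the start. Over all 32851 windows of this length, 1.86% held at least 1 of the motifs. The Cdk2 window is shown as the 1 with a match, TTTCCCGC on the opposite strand, which reads GCGGGAAA here. Ccnd1, Ccnd2, Ccne2 and Rb1 were not matched.
Ccnd3, chr17:47504801-47505050, plus strand: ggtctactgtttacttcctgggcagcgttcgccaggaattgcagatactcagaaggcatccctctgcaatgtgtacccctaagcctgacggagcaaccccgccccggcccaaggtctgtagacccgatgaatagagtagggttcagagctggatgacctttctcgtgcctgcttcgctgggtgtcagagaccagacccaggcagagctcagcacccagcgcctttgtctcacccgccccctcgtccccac
Ccnd3, chr17:47593217-47593466, plus strand: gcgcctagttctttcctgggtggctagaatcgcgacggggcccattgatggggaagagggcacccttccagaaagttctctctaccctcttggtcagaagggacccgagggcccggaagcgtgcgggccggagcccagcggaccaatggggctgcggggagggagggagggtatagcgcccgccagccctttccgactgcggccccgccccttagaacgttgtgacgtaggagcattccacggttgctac
Cdk2, chr10:128705052-128705301, minus strand: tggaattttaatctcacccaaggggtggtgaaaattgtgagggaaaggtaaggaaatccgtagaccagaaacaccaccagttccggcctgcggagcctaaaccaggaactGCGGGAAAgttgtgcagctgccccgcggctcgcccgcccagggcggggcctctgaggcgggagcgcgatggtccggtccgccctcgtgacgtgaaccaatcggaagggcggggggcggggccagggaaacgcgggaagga

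Cyclin D2 (Ccnd2, Entrez 12444, chr6:127125162-127152188) had the widest range over the Krr1 siRNAs of the 10 genes on a log2 scale. Its RNA was 55.7, 57.2 and 50.6 CPM in siGFP, siNC and Lipo and 13.9, 44.7 and 16.7 CPM in knockdown A, C and D. In siKrr1 A and D the level was 25.4% and 30.6% of the control mean, while siKrr1 C stood at 82.0%, just below the lowest control at 92.9%. Footprints repeated this order, with 81.8, 94.2 and 79.2 CPM in the controls and 27.7, 67.2 and 30.4 CPM in knockdown A, C and D. Krr1 itself was lowest in siKrr1 A in both assays, with siKrr1 D above siKrr1 C in RNA and below it in footprints. Ccnd2 fell in footprints, with a log2 fold change of -1.03 ± 0.26 (SE, edgeR adjusted p = 0.0423). In RNA it was at -1.12 ± 0.33 with a 95% interval of -1.84 to -0.39 (edgeR adjusted p = 0.0782). With no filter on low counts the RNA fall was called (-1.12, edgeR adjusted p = 0.00875), but DESeq2 did not call it (adjusted p = 0.195). Nor was it called without any 1 library other than siKrr1 C (edgeR adjusted p = 0.161 to 0.22). Without siKrr1 C the log2 fold change was -1.83 in RNA and -1.55 in footprints, and both were called (edgeR adjusted p = 8.81e-05 and 5.70e-05). The footprint call was lost without any other 1 of the libraries, with edgeR adjusted p from 0.0621 without siKrr1 A to 0.14 without siNC, and with DESeq2 (adjusted p = 0.105).

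Cyclin D1 (Ccnd1, Entrez 12443, chr7:144929931-144939831) overlapped between the groups in both assays. Its RNA was 408, 427 and 417 CPM in the controls and 433, 433 and 357 in knockdown A, C and D, so that siKrr1 D alone was below the controls. Footprints were 297, 277 and 283 CPM in the controls and 293, 247 and 224 in knockdown A, C and D. There siKrr1 A lay among the controls and the other 2 knockdown libraries below them. The log2 fold change was -0.03 in RNA (95% interval -0.22 to 0.15; edgeR adjusted p = 0.858) and -0.17 in footprints (-0.35 to 0.02; edgeR adjusted p = 0.288). Without siKrr1 A, Ccnd1 footprints were called lower, at -0.28 (edgeR adjusted p = 0.0241), the only call in 11 alternative settings.

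Counts of Ccnd2 and Ccnd3 were also set against those of Ccnd1 in the same library. Ratios of counts within a library are free of library scaling, and gene length cancels when the same ratio is compared across libraries. The ratio of Ccnd2 to Ccnd1 in RNA was 24.5%, 79.0% and 35.8% of its control mean in knockdown A, C and D, against 92.9% to 104% in the controls. In footprints it was 31.7%, 91.2% and 45.6%, against 92.1% to 114%, so that siKrr1 C lay just under the controls. The ratio of Ccnd3 to Ccnd1 was 48.9%, 68.3% and 84.5% in RNA and 52.5%, 75.2% and 96.8% in footprints, against 95.1% to 110% and 97.9% to 103% in the controls. For both ratios siKrr1 A was the lowest library. The ratio of Ccnd2 to Ccnd3 did not move 1 way. It was 50.0%, 115% and 42.2% of its control mean in RNA and 60.3%, 121% and 47.0% in footprints in knockdown A, C and D, against 94.8% to 108% and 89.3% to 115% in the controls, so that siKrr1 C lay above the controls and the others below. Of the footprint counts on the 3 genes, Ccnd3 held 40.6% in siKrr1 D, above its 37.2% to 39.3% in controls, and Ccnd2 held 14.5% in siKrr1 C, inside its 13.1% to 16.0%. Footprints on the 3 D-type cyclins together were 624, 590 and 584 CPM in siGFP, siNC and Lipo and 444, 463 and 428 CPM in knockdown A, C and D, which is 74.2% ± 2.92 (SD, n = 3) of the control mean. Their summed RNA was at 83.2% ± 7.64. The spread of this footprint sum over the Krr1 siRNAs was smaller than that of Ccnd1 (89.2% ± 12.4), Ccnd2 (49.1% ± 26.0) or Ccnd3 (64.9% ± 11.0) alone. A sum often varies less than its parts, and this one is not scaled by gene length. These sums are descriptions with no test.

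**Figure D2:**
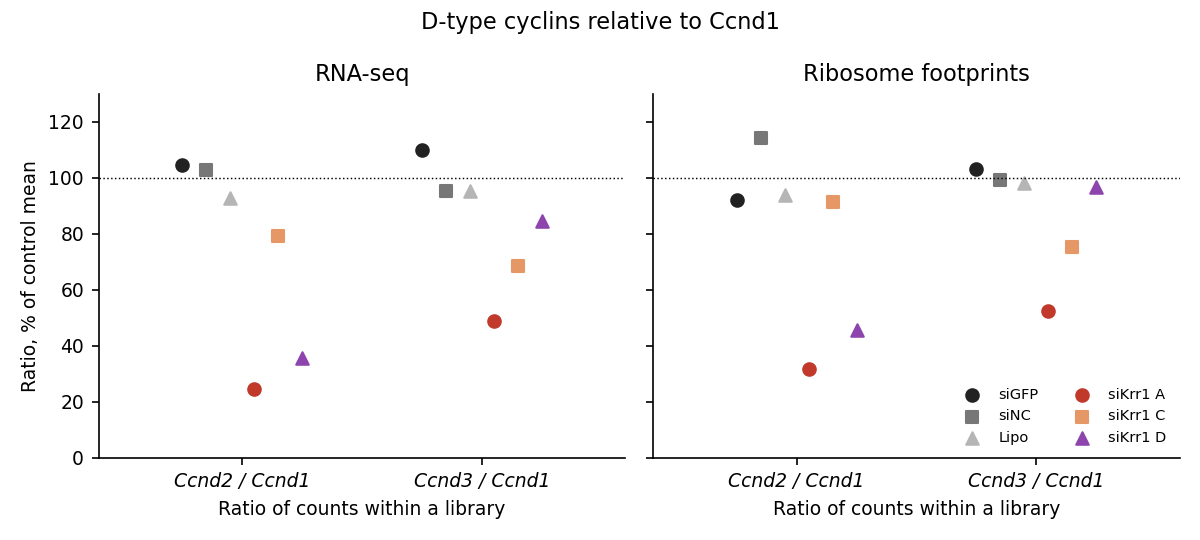
Counts of Ccnd2 and Ccnd3 divided by those of Ccnd1 in the same library, as a percentage of the control mean (vertical axis), in RNA (left) and footprints (right); each point is 1 library. The Ccnd2 ratio is at 24.5% and 35.8% in siKrr1 A and D in RNA but at 79.0% in siKrr1 C, and the Ccnd3 ratio is lowest in siKrr1 A.

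The E-type cyclins, which activate Cdk2 late in G1, were not called. Ccne1 (Entrez 12447, chr7:38097984-38107490) RNA was 522, 595 and 594 CPM in siGFP, siNC and Lipo and 560, 583 and 601 CPM in knockdown A, C and D. The knockdown libraries lay within or just above the range of the controls. Its log2 fold change was 0.03 (95% interval -0.14 to 0.19; edgeR adjusted p = 0.876). Ccne1 footprints were 403, 415 and 414 CPM in the controls and 339, 394 and 424 CPM in knockdown A, C and D, with siKrr1 A farthest from the controls (log2 fold change -0.09, edgeR adjusted p = 0.524). Ccne2 (Entrez 12448, chr4:11190433-11204779) RNA overlapped between the groups at 20.9 to 27.6 CPM in controls and 20.9 to 22.6 in knockdown cells (log2 fold change -0.10, edgeR adjusted p = 0.68). Ccne2 footprints were 30.4, 37.6 and 35.4 CPM in the controls and 25.8, 31.1 and 26.2 CPM in knockdown A, C and D. Of the knockdown libraries, siKrr1 C was above the lowest control, siGFP. The footprint change of -0.32 ± 0.10 (SE) had a 95% interval of -0.54 to -0.09 and did not pass the threshold (edgeR adjusted p = 0.0984). It was called at -0.41 without siKrr1 C (edgeR adjusted p = 0.0348) and at -0.32 with no filter on low counts (edgeR adjusted p = 0.0396). These were 2 of 11 alternative settings, and the others gave no call.

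None of the 3 cyclin-dependent kinases was called, and their fitted folds of knockdown over control were 0.92 to 0.94 in both assays. Cdk4 (Entrez 12567, chr10:127063535-127067288) RNA was 948, 939 and 939 CPM in the controls and 909, 904 and 844 in knockdown A, C and D. The groups did not overlap, yet the difference was small, at 94.0% ± 3.82 (SD, n = 3) of the control mean (log2 fold change -0.09, 95% interval -0.24 to 0.06; edgeR adjusted p = 0.507). Cdk4 footprints were 696 to 745 CPM in controls and 635 to 701 in knockdown cells, and overlapped. Cdk6 (Entrez 12571, chr5:3341004-3531008), which also pairs with D-type cyclins, was at 51.2 to 54.6 CPM in control RNA and at 50.2, 55.2 and 42.5 CPM in knockdown A, C and D. The siKrr1 D library was the lowest, as it was in Cdk6 footprints (35.7 CPM, against 40.7 to 47.6 in controls). Its log2 fold change was -0.11 in RNA and -0.12 in footprints (edgeR adjusted p = 0.581 and 0.514). Cdk2 (Entrez 12566, chr10:128697938-128705051) RNA was 141 to 148 CPM in controls and 128 to 147 in knockdown cells, and footprints were 156 to 165 and 139 to 157 CPM. Both overlapped between the groups (log2 fold change -0.10 in RNA and -0.09 in footprints, edgeR adjusted p = 0.493 and 0.413). For the 3 kinases the 95% intervals lay between -0.33 and 0.11 in both assays.

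The inhibitor p27 (Cdkn1b, Entrez 12576, chr6:134920401-134925525), which restrains cyclin E with Cdk2, showed the smallest RNA fold change of the 10. Its RNA was 78.1, 99.1 and 89.7 CPM in siGFP, siNC and Lipo and 85.6, 83.0 and 97.1 CPM in knockdown A, C and D. All 3 knockdown libraries lay inside the range of the controls. Its log2 fold change was -0.01 (95% interval -0.22 to 0.21; edgeR adjusted p = 0.979) in RNA and -0.05 (-0.21 to 0.10; edgeR adjusted p = 0.717) in footprints, where controls held 73.0 to 77.6 CPM and knockdown cells 66.9 to 77.6.

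Rb1 (Entrez 19645, chr14:73192858-73325951), the pocket protein that holds E2F factors in check, was the member with higher values in knockdown cells. Its RNA was 6.90, 7.02 and 6.65 CPM in siGFP, siNC and Lipo and 10.4, 7.85 and 10.4 CPM in knockdown A, C and D. Every knockdown library was above the controls, and siKrr1 C was the nearest to them. Footprints were 16.8, 12.8 and 15.2 CPM in the controls and 27.9, 18.3 and 21.3 CPM in knockdown A, C and D, with siKrr1 C again the closest. These rest on 236 to 395 counts per library in RNA and 356 to 630 in footprints. Rb1 rose in footprints, with a log2 fold change of 0.59 ± 0.15 (SE, edgeR adjusted p = 0.0456), to 151% ± 32.7 (SD, n = 3) of the control mean. In RNA the log2 fold change was 0.48 ± 0.15 with a 95% interval of 0.16 to 0.79 (edgeR adjusted p = 0.087). It was called by DESeq2 (adjusted p = 0.043) and without siKrr1 C (0.61, edgeR adjusted p = 0.0195). Without any other 1 library the RNA rise was not called (edgeR adjusted p = 0.173 to 0.269). The footprint call was lost without any 1 library other than siKrr1 C, with edgeR adjusted p from 0.0786 without siKrr1 D to 0.174 without siNC.

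**Figure D3:**
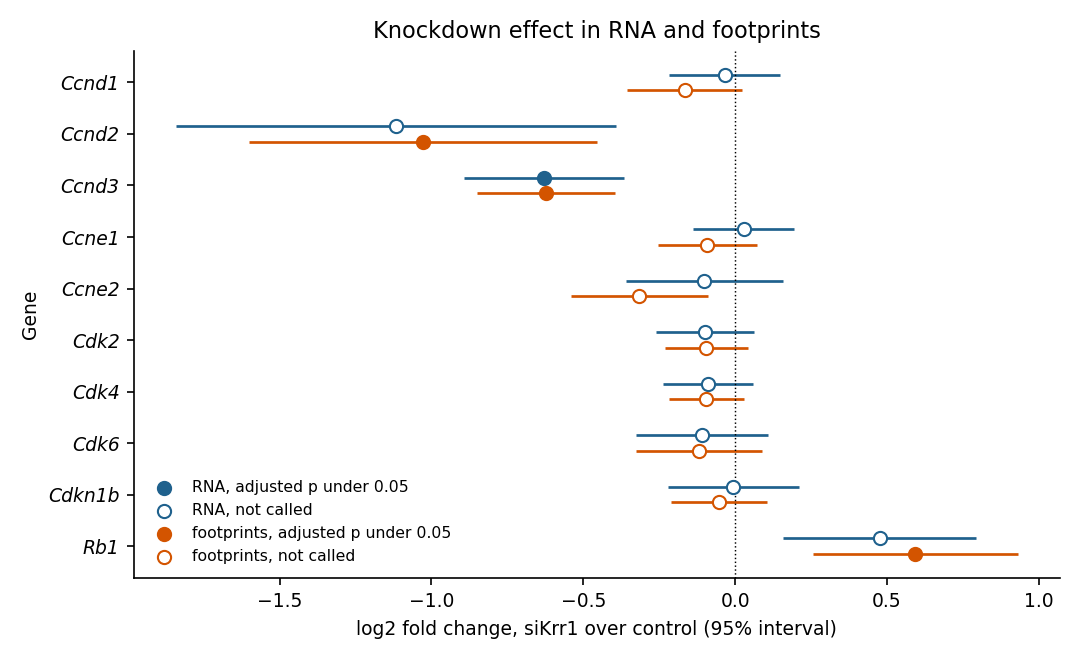
Log2 fold change of siKrr1 over control with its 95% interval (horizontal axis) for each gene, in RNA (blue) and footprints (orange); filled points have an edgeR adjusted p under 0.05. Filled points are Ccnd3 in both assays (-0.63 and -0.62) and Ccnd2 (-1.03) and Rb1 (0.59) in footprints, and the kinases and Cdkn1b lie near 0.

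In these 10 genes, no difference between the footprint change and the RNA change passed the threshold. Translational efficiency is the footprint level relative to the RNA level, and its change was tested as the interaction of assay and condition over the 12 libraries. Of the 10 genes 0 were called, and 0 of 14236 genes were called in all (0%), with 337 genes (2.37%) at an unadjusted p under 0.05 (edgeR) and 2 genes called by DESeq2. With the lysate as a replicate block, which pairs the RNA and footprint libraries of a lysate, 6 genes were called and again 0 of the 10. The change was 0.00 ± 0.18 (SE) for Ccnd3, 0.09 ± 0.50 for Ccnd2 and 0.11 ± 0.22 for Rb1 on the log2 scale. The 95% interval was -0.37 to 0.38 for Ccnd3 and -0.98 to 1.16 for Ccnd2, the widest of the 10. For Cdk4 it was narrower, -0.19 to 0.17. These errors and intervals come from the fit without the block. They count as error the spread that the RNA and footprints of a lysate share, and no interval from the paired fit is given. Within a lysate, the log2 ratio of footprints to RNA for Ccnd2 was 0.64 ± 0.08 in controls and 0.82 ± 0.21 in knockdown cells (SD, n = 3). For Ccnd3 it was 0.09 ± 0.02 and 0.10 ± 0.12.

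The ratio of footprint CPM to RNA CPM set the members apart in the controls, before any knockdown. RNA reads cover untranslated ends that ribosomes leave bare, so that this ratio also depends on the make-up of each transcript. On the log2 scale Rb1 was highest, at 1.28, 0.87 and 1.19 in siGFP, siNC and Lipo, above 92.6% of 12184 genes with at least 1 CPM. Ccnd2 at 0.64 ± 0.08 (SD, n = 3) and Ccne2 at 0.56 ± 0.21 followed, and their values overlapped. Cdk2 (0.14 ± 0.02) and Ccnd3 (0.09 ± 0.02) came next, close to each other but without overlap. Cdkn1b (-0.25 ± 0.22) and Cdk6 (-0.28 ± 0.09) overlapped at around the median of all genes, -0.24. Cdk4 (-0.38 ± 0.04), Ccne1 (-0.47 ± 0.08) and Ccnd1 (-0.55 ± 0.08) were the lowest, each overlapping its neighbour in this order. Thus Ccne2 lay above Ccne1 and Ccnd2 above Ccnd1, with Ccnd3 between the other D-type cyclins. In knockdown cells Rb1 (1.23 ± 0.20) and Ccnd2 (0.82 ± 0.21) were still the highest and Ccne1 (-0.60 ± 0.11) and Ccnd1 (-0.68 ± 0.13) the lowest. For none of the 10 did the ratios of the knockdown lysates lie wholly to 1 side of those of the controls, beside 12.1% of all genes tested (6.81% higher and 5.33% lower).

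**Figure D4:**
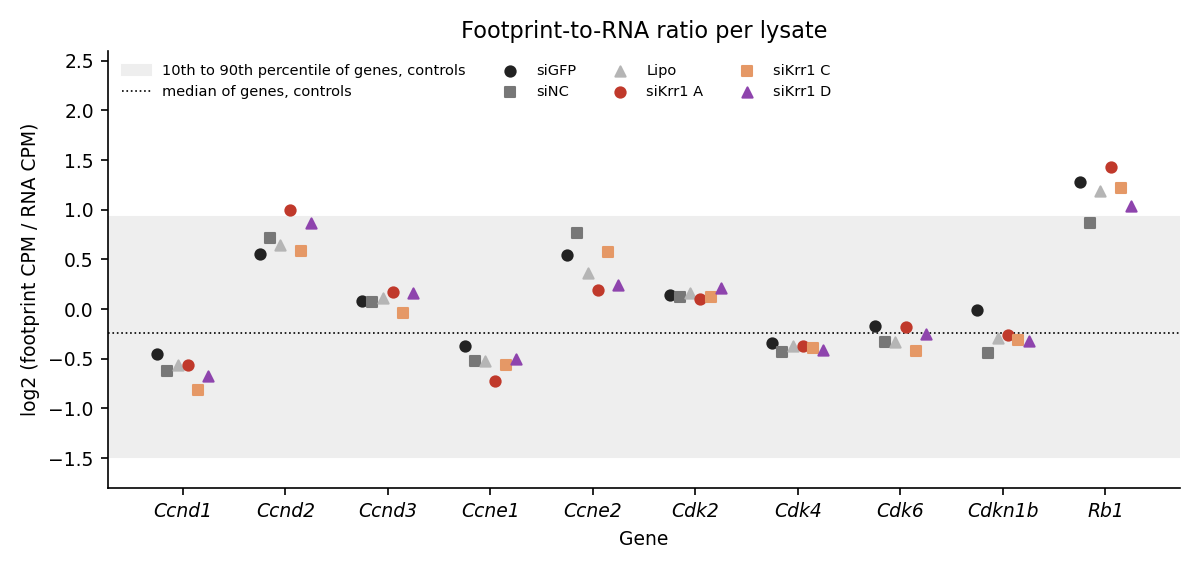
Log2 ratio of footprint CPM to RNA CPM (vertical axis) for each gene in each lysate; the band spans the 10th to 90th percentile of 12184 genes in controls and the dotted line their median of -0.24. Rb1 lies above the band in every lysate but siNC, as does Ccnd2 in siKrr1 A (1.00). Ccnd1, Ccne1 and Cdk4 lie below the median in all 6 lysates.

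Genes on either side of these members in the pathway were examined as lists. Among 12 pocket proteins and E2F or DP factors, 1 fell in RNA and 1 in footprints, beside 2.11% and 2.68% of all genes tested, so that 1 gene in so short a list is no result about the list. Its median log2 fold change was -0.02 and -0.03. E2f2, an activating E2F, fell in RNA by 0.43 ± 0.08 (SE, edgeR adjusted p = 0.0146), from 73.0 ± 3.57 to 54.0 ± 3.12 CPM (SD, n = 3), and its footprints were at -0.21 (edgeR adjusted p = 0.391). E2f4, a repressing E2F, fell in footprints by 0.22 ± 0.05 (edgeR adjusted p = 0.0293) and was at -0.11 in RNA. The Rb relatives Rbl1 (p107) and Rbl2 (p130) were not called, at 0.06 and 0.11 in RNA and -0.05 and 0.28 in footprints. The E2f2 call was lost without siNC, Lipo or siGFP (edgeR adjusted p = 0.0512 to 0.0824), and the E2f4 call without siKrr1 D or any 1 control (0.0634 to 0.148). Without siKrr1 A or siKrr1 C, 2 of the list were called in footprints, beside 743 and 1337 of all genes.

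Of other inhibitors of cyclin-dependent kinases, 1 of 6 tested rose in RNA and 1 of 5 in footprints, beside 2.69% and 3.39% of all genes tested, which in so short a list is no result about the list. The gene was Cdkn1a (p21, a p53 target that inhibits Cdk2), at 18.2 ± 2.52 CPM in control RNA and 29.4 ± 6.52 in knockdown RNA (SD, n = 3). Its log2 fold change was 0.69 ± 0.15 in RNA and 0.80 ± 0.17 (SE) in footprints (edgeR adjusted p = 0.0301 and 0.0203). The RNA call was lost without siKrr1 A or any 1 control (edgeR adjusted p = 0.0697 to 0.128), and the footprint call without siKrr1 D or any 1 control (0.0576 to 0.107). The inhibitors of Cdk4 and Cdk6 from the Ink4 family were not called where tested. Of these, Cdkn2c (p18) had too few footprints to be tested and was at 0.15 in RNA, with 0.68 CPM in controls. Cdkn2a was at 0.15 in RNA and 0.41 in footprints (edgeR adjusted p = 0.66 and 0.11), Cdkn2b at 0.66 and 0.73 with under 3 CPM in each group mean, and Cdkn2d at -0.08 and -0.03. The p27 relative Cdkn1c (p57) was at -0.07 and -0.23.

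Enzymes that set the turnover of G1 cyclins and p27 were mostly not called. Of 13, 1 rose and 1 fell in RNA and 2 rose in footprints, beside 4.8% and 6.07% of all genes called in either direction, and these counts are too small to be a result about the list. Usp28, a deubiquitinase that opposes the Fbxw7 ligase, rose by 0.48 ± 0.07 (SE) in RNA and 0.51 ± 0.06 in footprints (edgeR adjusted p = 0.00672 and 0.0012), and passed the threshold in both assays whichever library was left out. Fbxw7, the receptor subunit that targets cyclin E and Myc for destruction, rose in footprints by 0.78 ± 0.17 (edgeR adjusted p = 0.026), from 20.5 ± 1.70 to 35.3 ± 10.8 CPM (SD, n = 3), and was at 0.18 in RNA. Its footprint call was lost without siGFP, siNC or Lipo (edgeR adjusted p = 0.0824 to 0.128). Fzr1 (Cdh1), which directs the anaphase-promoting complex in G1, fell in RNA by 0.38 ± 0.08 (edgeR adjusted p = 0.0294) and was at -0.12 in footprints. That call was lost without any library other than siKrr1 C (0.0709 to 0.127). Skp2, the receptor that targets p27, was at 0.06 in RNA and 0.00 in footprints.

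Targets of E2F that serve entry into S phase were lower in part. Of 23 genes 3 fell and 0 rose in RNA, and 6 fell and 0 rose in footprints, beside 2.11% and 2.68% of all genes tested that were called lower. The list's median log2 fold change was -0.16 and -0.14, against 0.00 and 0.01 over all genes. Values below 0 were found in 20 of 23 in RNA and 21 of 23 in footprints, against 50.2% and 48.5% of all genes tested. The list was chosen with earlier results of these data known, so these shares are a description and not a test. As targets of the same factors, the genes are not 23 separate observations. Rrm2, a subunit of ribonucleotide reductase, fell in footprints from 773 ± 9.72 to 600 ± 14.4 CPM (SD, n = 3), a log2 fold change of -0.36 ± 0.05 (SE, edgeR adjusted p = 0.00284) that was called with each library left out. It fell in RNA as well, by 0.33, a call that was lost without siKrr1 A or any 1 control (edgeR adjusted p = 0.0768 to 0.13). The thymidine kinase Tk1 fell by 0.42 in RNA and 0.43 in footprints (edgeR adjusted p = 0.0182 and 0.00976), and lost the RNA call without any 1 control (0.0585 to 0.0958) and the footprint call without siNC (0.065) or Lipo (0.0602). The origin licensing factor Cdc6 (-0.34), the helicase subunit Mcm4 (-0.23), the polymerase subunit Pola1 (-0.26) and Cdc45 (-0.27), another helicase component, fell in footprints. The sliding clamp Pcna fell in RNA by 0.35. Cdc45 was chosen after its values were seen. Cdc6 lost its call without siNC or Lipo, Mcm4 and Pola1 without any 1 control, and Cdc45 without siKrr1 D or any 1 control. Pcna lost its call without any library other than siKrr1 C. These counts changed with the libraries used. Without siGFP, siNC or Lipo 0 fell in RNA and 3, 1 and 1 in footprints. Calls over all genes became fewer as well, with 57, 60 and 51 called lower in RNA, against 296 with all libraries. In footprints 116, 97 and 64 were called lower, against 356. Without siKrr1 A, C or D, 1, 4 and 2 of the list fell in RNA, beside 133, 539 and 166 of all genes. In footprints 7, 7 and 5 fell, beside 359, 546 and 256. Of 7 DREAM and MuvB genes, which include subunits of complexes that bind Rb relatives, 0 were called in RNA (edgeR), beside 4.8% of all genes tested. In footprints 1 fell, beside 2.68% of all genes tested. This was Mybl2 (B-Myb), at 534 ± 27.7 and 409 ± 39.1 CPM (log2 fold change -0.38, edgeR adjusted p = 0.0123, and 0.0731 without siGFP and 0.0724 without Lipo).

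**Figure D5:**
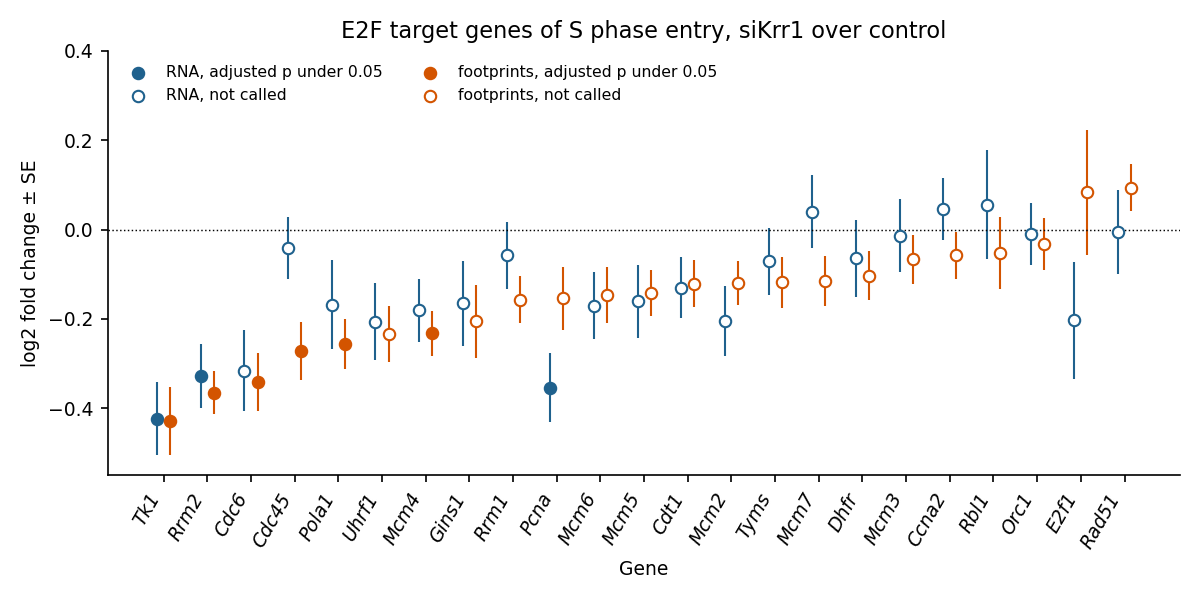
Log2 fold change ± SE of siKrr1 over control (vertical axis) for the 23 E2F target genes in RNA (blue) and footprints (orange), ordered by the footprint value; filled points have an edgeR adjusted p under 0.05. Most points are below 0 and the filled ones, 3 in RNA and 6 in footprints, lie between -0.43 and -0.23.

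Genes whose profile was most like that of a called member were found from the root-mean-square difference of log2 CPM over the 12 libraries, each assay centred on its control mean. The search covered 8921 genes that averaged 5 CPM or more in both assays and had an established symbol (no Rik, Gm number, RP or accession name). Prr13, Map1a and Nab2 were nearest to Ccnd3, with differences of 0.06, 0.07 and 0.09. Mapt, Inhbb and Tmem108 were nearest to Ccnd2, at 0.18, 0.23 and 0.26. The measure is not scaled by the size of a change, and Ccnd2 had a larger fold change than Ccnd3 or Rb1. Mgmt, Rev1 and Rhob were nearest to Rb1, at 0.10, 0.10 and 0.11. Libraries and scaling are shared by all these profiles, and the likeness is a description.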

How the data were processed

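The deposited tables hold raw counts of reads per gene symbol for each of 12 libraries. The submitters' processing notes name STAR, HTSeq and the build mm10, from which the authors made these counts, with annotation and strand setting not given in the sources used here. Of unique alignments, 66.4% to 68.6% were on genes in RNA and 36.6% to 42.4% in footprints, and reads on no gene (31.2% to 33.4% and 57.5% to 63.3%) or on several were left out. Control columns were matched to titles by name. Knockdown columns carry letters and were assigned to groups only. Libraries of 1 group differed by more than sampling noise (chi-square per degree of freedom 4.03 to 28.7).

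Genes were filtered by filterByExpr and tested with edgeR 4.0.16 (quasi-likelihood test, TMM factors, limma 3.58.1, R 4.3.3) within each assay, with Benjamini-Hochberg adjustment over all genes tested. The F statistic gave standard errors and 95% intervals. A change of translational efficiency was the interaction over 12 libraries, without the lysate as a block. The labels state that each lysate was divided. Over 7057 genes, the RNA and footprint deviations of the same lysate had an r of 0.237 to 0.709, above that with any other lysate of the group (-0.372 to 0.00882). The scripts were tested on simulated data. Alternatives were RLE, upper-quartile or no factors, DESeq2 1.42.0, no filter, each lysate left out, and the block. The planned shares of D-type cyclins per coding length were replaced by count ratios, since coding lengths were not used here, and for the same reason levels are not compared between genes. Gene positions are RefSeq's on GRCm38.p6.

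The members and lists were chosen with earlier results of these data known. All 10 members are named, with called genes of each list (up to 6 by adjusted p, or the 2 most abundant where none was called) and the 3 genes most like each called member.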

Additional observations from a re-analysis of the deposited data

How the results depend on the processing

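The other scalings (RLE, upper-quartile, library totals) kept every call of the 10 genes in RNA and footprints. Of the 10, 1 was called in RNA, against 2 with DESeq2, 2 with no filter on low counts and 0 to 3 with a library left out. In footprints 3 were called, against 2 with DESeq2, which did not call Ccnd2, and 4 with no filter. With a library left out, 0 (without siGFP) to 4 (without siKrr1 C) were called. Over all genes, 674 were called in RNA, against 1202 with DESeq2, 1059 with no filter and 114 (without Lipo) to 1298 (without siKrr1 C) with a library left out. In footprints 806 were called, against 1157 with DESeq2, 1400 with no filter and 131 (without Lipo) to 1337 (without siKrr1 C). In translational efficiency 0 were called, against 2 with DESeq2, 2 with no filter, 6 with the lysate as a replicate block and 0 to 1 with a lysate left out, while 0 of the 10 members were called in each of these. With the block, the log2 change of translational efficiency was 0.0054 for Ccnd3 and 0.15 for Ccnd2, and neither was called.

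Signs turned only where no call was made. With library totals Cdkn1b in RNA was at 0.017, and in translational efficiency Cdk4 at 0.0033 and Cdk6 at 0.0026; with no filter Ccnd3 was at -0.0022 and Cdk2 at -0.0032 there. With a library left out, RNA ranged from -0.079 to 0.059 for Ccnd1, -0.024 to 0.066 for Ccne1, -0.17 to 0.033 for Ccne2 and -0.083 to 0.085 for Cdkn1b. Translational efficiency ranged from -0.032 to 0.063 for Ccnd3, -0.026 to 0.026 for Cdk2, -0.035 to 0.0036 for Cdk4, -0.071 to 0.053 for Cdk6, -0.16 to 0.054 for Cdkn1b and -0.0064 to 0.23 for Rb1. Leaving out a control leaves 2 against 3 libraries; the cause of lost calls was not tested. The list counts were recomputed under the same settings after seeing the data. Rb1 rests on the fewest counts of the 10 in RNA, and in footprints in every library but siKrr1 A.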

Other observations

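Of 10 genes of kinase activation and S-phase cyclins, 0 rose and 0 fell in either assay by edgeR at an adjusted p under 0.05. Over all genes tested 4.8% were called in RNA and 6.07% in footprints, so that 0 in so short a list is no result about the list. Cdk1, the mitotic kinase, was at 530 ± 37.7 CPM in control RNA and 529 ± 20.7 in knockdown RNA, (SD, n = 3), with a log2 fold change of -0.09 in footprints. Ccna2, which activates Cdk2 in S phase, had log2 fold changes of 0.05 in RNA and -0.06 in footprints (edgeR adjusted p = 0.763 and 0.574).

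Among 14 other cyclins and kinases linked to G1 or to transcription, 1 rose in RNA, beside 2.69% of all genes tested. Among the 13 tested in footprints 0 were called by edgeR, beside 6.07% of all genes tested. Ccng1, a cyclin induced by p53, rose in RNA from 167 ± 13.7 to 301 ± 66.8 CPM (SD, n = 3), a log2 fold change of 0.85 ± 0.14 (SE, edgeR adjusted p = 0.0101), and was called with each library left out. In footprints its log2 fold change was 0.51 ± 0.14 (edgeR adjusted p = 0.0647), with overlap between the groups. The difference between the assays, -0.34 ± 0.23, was not called.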
